A study of Rattus norvegicus with 6 samples.

Results

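Messenger RNA from regenerated sciatic nerve of male wild-type Sprague-Dawley rats was compared between libraries rich and poor in myelin transcripts. The 6 libraries were grouped by a measured value, the Mbp count as a share of the library's total count, scaled to 1000000 (CPM). Mbp encodes myelin basic protein, a structural protein of compact myelin. A library above 1000 CPM was called myelin-rich and one below it myelin-poor. This put 3 of the 6 libraries in each class. All 6 came from nerves with a surgical sciatic nerve defect. In the NC group the wound was closed with no implant. In the other group the defect held an implant of GDNF-Gel/HA-Mg, a conduit material loaded with GDNF, the glial cell line-derived neurotrophic factor; the count columns of these libraries are named for the material without GDNF. The treated libraries are called implant 1, 2 and 3 here, with the numbers of their titles. The labels give neither the time after surgery nor the length of the defect, and nothing in them ties a library to an animal of its own.

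The myelin-rich libraries were NC 2, implant 1 and implant 3, with Mbp at 6639, 2676 and 2969 CPM of the column totals. The myelin-poor libraries were NC 1, NC 3 and implant 2, at 346, 323 and 265 CPM. The lowest value above the threshold was thus that of implant 1 and the highest below it that of NC 1, with no library between them. Each class holds libraries of both treatments, 1 NC and 2 implant libraries in the myelin-rich class and 2 NC and 1 implant library in the myelin-poor class. Because Mbp made the classes, every difference between them is given as a description, with no p-value.

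Schwann cells are the glia of peripheral nerve. After injury they shed myelin, switch to a repair state that guides regrowing axons, and return to a myelinating state where they contact large axons. Myelination needs the transcription factors Sox10, Pou3f1 and Egr2, neuregulin from the axon, and a large supply of cholesterol and galactolipids. Perineurial cells, which form the sheath around each bundle of axons, depend on Desert hedgehog from Schwann cells. Macrophages clear the myelin debris. In bulk tissue, fewer cells of a type and less RNA per cell cannot be told apart.

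Total counts ran from 15897850 to 18491379 per library, and the 2 classes overlapped in depth. Haemoglobin took 1.02%, 8.08% and 14.8% of the counts in the myelin-rich libraries and 1.19%, 25.2% and 12.9% in the myelin-poor ones. The labelled tissue held its defining transcripts in each library, but the Schwann lineage markers were low in NC 3. Sox10 stood at 243, 179 and 161 against 154, 21.8 and 122 CPM, in the order NC 2, implant 1 and implant 3 against NC 1, NC 3 and implant 2. The same order is used for every set of values that follows, on the scale of library sizes corrected by the trimmed mean of M values (TMM).

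**Figure D1:**
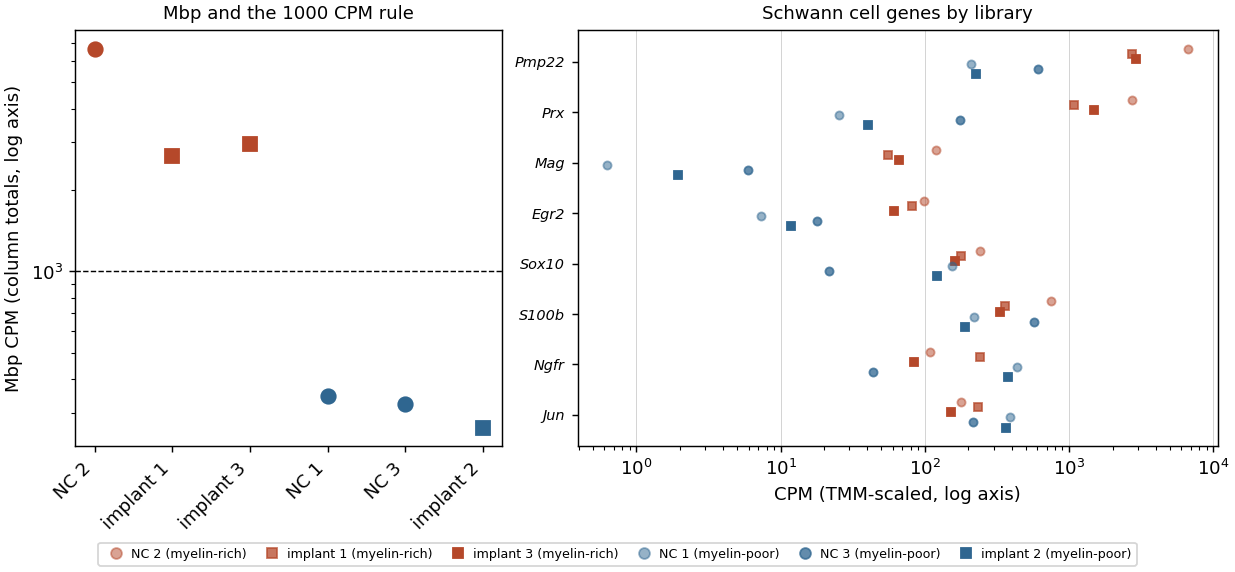
Left, Mbp CPM of each library on a log axis with the 1000 CPM threshold dashed; right, CPM of 8 Schwann cell genes on a log axis, 1 point per library (circles NC, squares implant). Red points are the myelin-rich libraries NC 2, implant 1 and implant 3; the myelin genes from Pmp22 to Egr2 separate the classes, while S100b, Ngfr and Jun overlap.

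Myelin genes followed Mbp, which the grouping makes circular. Pmp22, a protein of compact peripheral myelin, stood at 6720, 2735 and 2927 CPM in the myelin-rich libraries and at 209.7, 610.2 and 228 in the myelin-poor ones, and the myelin transcription factor Egr2 at 98.6, 81.8 and 61.3 against 7.32, 18.0 and 11.9 CPM. No library of one class reached the other for these genes. Of the 24 myelin genes tested, 20 were higher in the myelin-rich class by the call rule given next.

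The classes were then compared over all genes tested, the myelin genes included. A gene was called higher or lower when its 3 values in one class all lay above the 3 in the other and the mean log2(CPM + 0.5) differed by at least 1, a 2-fold difference. By this rule 687 of 13999 genes (4.91%) were higher and 240 (1.71%) lower in the myelin-rich libraries. At any fold, 2266 genes (16.2%) lay wholly higher and 1720 (12.3%) wholly lower. These percentages are the background for each gene list below. With 1 library left out, the shares called over all genes ran from 4.43% to 5.62% higher and from 1.39% to 3.39% lower. List counts with a library left out are to be read beside those shares. The median difference over all genes was 0.00 log2 units. In 73.3% of the genes the difference had the same sign within the NC libraries alone and within the implant libraries alone.

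Outside the myelin list, the 12 genes with the widest gap between the classes on the higher side were led by Ccl9, a chemokine of myeloid cells, at 55.3, 55.7 and 33.4 CPM in the myelin-rich libraries and at 1.82, 1.45 and 0.326 in the myelin-poor ones. Next was Slc9a3, a sodium-proton exchanger, at 21.8, 10.2 and 24.1 against 0.208, 0.361 and 0.217 CPM. Septin3 and Bcas1 followed. Bcas1, a gene of myelin-forming glia, stood at 210.3, 96.8 and 135 against 3.84, 8.96 and 3.15 CPM. Mmp12, the elastase of macrophages, stood at 80.5, 74.2 and 49.8 against 4.57, 4.12 and 1.58 CPM. Col28a1, a collagen of glial cells in nerve, stood at 204, 237 and 158 against 12.5, 15.5 and 10.9 CPM. For each of the genes with values given here, the lowest myelin-rich library lay far above the highest myelin-poor one. The others were Kcna2, Sorcs1, Tmprss5, Pou3f1, Rap1gap and Kcnk1.

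On the lower side the gap was widest for Acan, which encodes the cartilage proteoglycan aggrecan, at 0.578, 0.41 and 0.295 CPM in the myelin-rich libraries and at 6.33, 12.6 and 5.43 in the myelin-poor ones. Lrrc15, a marker of activated fibroblasts, stood at 3.01, 22.8 and 7.61 against 97.8, 57.9 and 56.2 CPM. Tnn, which encodes the matrix protein tenascin-W, stood at 15.1, 21.4 and 10.2 against 56.5, 98.7 and 48.8 CPM. Nox4, an oxidase that makes hydrogen peroxide, stood at 11.6, 10.7 and 10.2 against 31.6, 24.9 and 25.9 CPM, with little spread inside either class. The interferon-inducible Ifi27l2b stood at 14.2, 44.7 and 29.3 against 147, 103 and 149 CPM. Cyp2e1, Kcnip1, Actc1, Cesl1, Fbxo4 and Znf185 were also among the 12 genes. Cesl1 belongs to a family of similar carboxylesterases, so its counts are uncertain where reads match several copies.

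**Figure D2:**
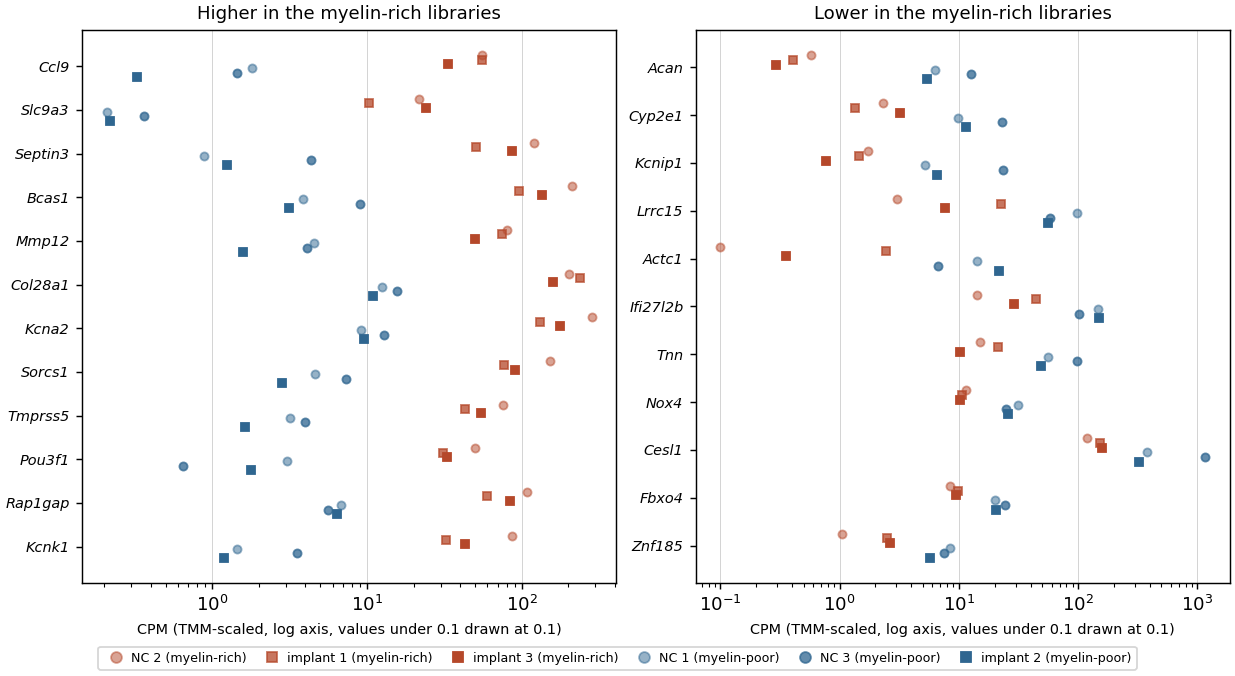
CPM on a log axis of genes among the 12 with the widest gap between the classes in each direction (12 higher, 11 lower), 1 point per library (circles NC, squares implant; red myelin-rich, blue myelin-poor). In every row the 3 red and the 3 blue points do not overlap, since the genes were picked for that; the highest red value of Acan is 0.578 CPM and the lowest blue one 5.43.

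Schwann lineage genes were higher in the myelin-rich class in 10 of 20 tested and lower in 0 (background 4.91% and 1.71%), with a median difference of 1.34 log2 units. Pou3f1, which starts the myelin programme in promyelinating Schwann cells, stood at 49.8, 31.1 and 33.1 CPM in the myelin-rich libraries and at 3.06, 0.651 and 1.79 in the myelin-poor ones. Cdh19, a cadherin of the lineage, stood at 259.7, 149.6 and 129 against 91.8, 23.7 and 63.8 CPM. The pan-Schwann marker S100b overlapped, at 752, 361 and 331 against 219, 571 and 190.4 CPM, with NC 3 above implant 1 and implant 3. Without NC 3 the lineage count was still 10 of 20, and the median 0.85. Genes of axon-glia contact were higher in 11 of 20 (median 1.16), some of which are also myelin genes. Nfasc, the neurofascin of nodes and paranodes, stood at 218, 92.0 and 119 against 6.44, 16.3 and 6.74 CPM. Nrcam, its partner at the node, stood at 69.7, 43.7 and 42.1 against 15.7, 5.71 and 8.48 CPM, and Cadm4, the Schwann cell adhesion molecule that binds axons, at 482, 409 and 244 against 147, 47.4 and 84.8 CPM.

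Ion channel genes were called higher in 6 of 28 tested and lower in 0 (background 4.91% and 1.71%). At any fold, 8 lay wholly higher and 2 wholly lower. Kcna1, a potassium channel of the region beside the paranode, stood at 424, 188 and 281 CPM in the myelin-rich libraries and at 1.3, 23.1 and 6.90 in the myelin-poor ones. Kcna2 stood at 284, 132 and 177 against 9.09, 12.9 and 9.51 CPM and Kcnk1 at 86.9, 32.6 and 42.9 against 1.45, 3.54 and 1.20 CPM. Kcnj10, an inward rectifier of glia, stood at 36.1, 31.8 and 18.2 against 2.18, 1.37 and 1.36 CPM. Scn7a, a sodium channel listed here with non-myelinating Schwann cells, stood at 1311, 707 and 922 against 80.5, 101 and 26.7 CPM. The median over the channel list was 0.06 and turned to -0.14 without implant 3, with 15 members positive and 13 negative. The mean level of the list lay apart in the classes, at 0.35, 0.26 and 0.64 log2 units against -0.59, -0.28 and -0.38.

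Repair genes did not form a mirror image of myelin across the 6 libraries. Of 22 tested, 1 was lower and 3 were higher in the myelin-rich class (background 1.71% and 4.91%). The median was -0.62, with 15 members negative and 7 positive. The 3 higher members were Shh, Tgfa and Mpp6, and the lower one was Nrg1. Mpp6, a scaffold protein of the membrane, stood at 62.5, 38.3 and 39.6 CPM in the myelin-rich libraries and at 25.3, 11.9 and 20.8 in the myelin-poor ones, and the growth factor gene Tgfa at 76.8, 36.6 and 24.1 against 12.4, 14.4 and 13.6 CPM. For both, the 3 myelin-poor libraries were the lowest. Other members, of which Bdnf, Gap43, Runx2 and Sox2 were picked after their values were seen, ran the other way in 2 of the 3 myelin-poor libraries. Ngfr encodes the low-affinity neurotrophin receptor, which Schwann cells make when they lose their axons, and stood at 109, 239.9 and 84.8 CPM in the myelin-rich libraries and at 434, 43.7 and 379.8 in the myelin-poor ones. Thus NC 1 and implant 2 were highest and NC 3, also myelin-poor, was lowest of all. Bdnf, the brain-derived neurotrophic factor gene, stood at 0.231, 5.50 and 0.295 against 22.4, 1.52 and 21.0 CPM. Gap43, a growth-associated protein, stood at 8.84, 25.8 and 11.4 against 84.9, 17.1 and 73.2 CPM. Runx2, a transcription factor of the repair state, stood at 15.6, 26.7 and 11.2 against 64.8, 10.3 and 52.5 CPM, and Sox2, which keeps Schwann cells immature, at 15.5, 24.8 and 12.6 against 57.7, 4.92 and 46.1 CPM. Jun, the driver of the repair state, stood at 179, 233 and 153 against 388, 216 and 366 CPM. In Ngfr, Bdnf, Gap43, Runx2, Sox2 and Jun, NC 1 and implant 2 were the highest pair of the 6 libraries, while NC 3 lay at or below the level of at least 1 myelin-rich library. Without NC 3, 12 of 22 repair genes were lower in the myelin-rich class and 2 higher (background 2.54% and 4.8%), with a median of -1.27. Without implant 1, 6 were lower and 3 higher (background 3.39% and 5.62%), with a median of -0.96. Implant 1, which is myelin-rich, held intermediate values of Ngfr, Bdnf and Gap43.

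The myelin-poor class therefore holds unlike libraries. As deviations from the 6-library mean, the Schwann lineage list stood at -0.15 log2 units in NC 1, -0.47 in implant 2 and -1.40 in NC 3. The repair list stood at 0.65, 0.64 and -0.68 in the same order. The adipocyte list stood at 0.30, 0.02 and 1.59, and the haemoglobin and red cell list at -2.37, 0.55 and 2.30. NC 3 was the highest of the 6 libraries in both of the last 2 lists. Among the myelin-rich libraries, implant 3 stood apart in skeletal muscle genes, at 3.06 against -0.22 in NC 2 and -1.96 in implant 1.

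**Figure D3:**
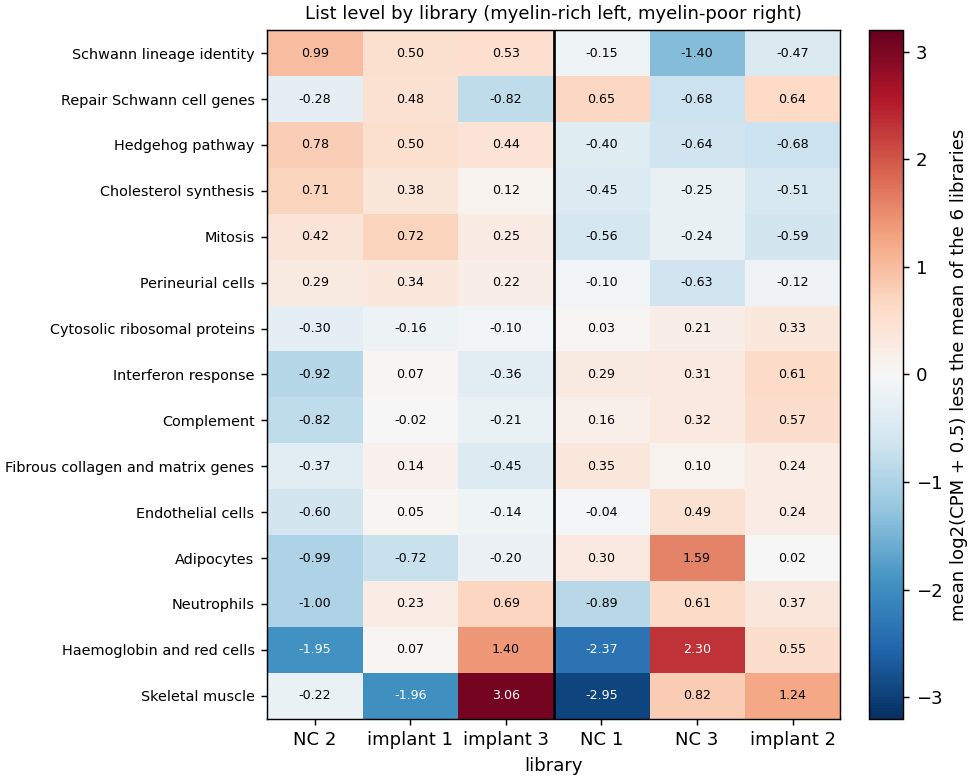
Level of 15 gene lists (rows) in each library (columns), as the mean log2(CPM + 0.5) of the list less the mean of the 6 libraries; red is above and blue below that mean, and the line parts the 3 myelin-rich libraries on the left from the 3 myelin-poor ones. The Hedgehog, cholesterol and mitosis rows change sign at the line, while the repair row is high in NC 1 and implant 2 and low in NC 3 (-0.68).

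Ligands and induced genes of the Hedgehog pathway were higher in the myelin-rich libraries. The ligands of the pathway bind the receptor Ptch1, which frees Smo to activate the Gli factors, and Ptch1, Gli1 and Hhip are themselves induced by the signal. Of 12 genes tested, 6 were higher and 0 lower in the myelin-rich class (background 4.91% and 1.71%), with a median of 0.99. Leaving out any 1 library left 6 higher and 0 lower. The median was 1.09 within NC and 0.94 within the implant libraries.

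Dhh, the ligand of Schwann cells, stood at 111, 74.8 and 68.1 CPM in the myelin-rich libraries and at 15.2, 9.83 and 14.8 in the myelin-poor ones. Shh, a ligand that Schwann cells make after injury and a member of the repair list, stood at 22.5, 26.2 and 3.66 against 0.623, 2.39 and 0.38 CPM, low in implant 3 and near 0 in NC 1 and implant 2. Ptch1 stood at 347, 261 and 294 against 71.1, 75.5 and 51.6 CPM. The transcription factor Gli1 stood at 45.6, 34.2 and 44.6 against 17.1, 6.29 and 13.2 CPM. Hhip, which binds the ligands outside the cell, stood at 9.77, 2.63 and 4.36 against 0.571, 1.74 and 0.652 CPM. The signal transducer Smo stood at 49.3, 44.3 and 46.0 against 52.2, 38.0 and 47.5 CPM, with a difference of 0.03 log2 units, and Gli2 and Gli3 differed by 0.30 and 0.18. The classes thus separated for the ligands and induced genes named here and overlapped for Smo, Gli2 and Gli3.

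The 250 bases before the start of Ptch1 are shown because this gene is both the receptor and a target of the pathway. The sequence is from RefSeq (GRCr8 chr17:1555321-1555570, plus strand), and the capitals mark its 1 match to the letters GGGTGGTC, the core bound by Gli factors, searched on both strands.
Ptch1: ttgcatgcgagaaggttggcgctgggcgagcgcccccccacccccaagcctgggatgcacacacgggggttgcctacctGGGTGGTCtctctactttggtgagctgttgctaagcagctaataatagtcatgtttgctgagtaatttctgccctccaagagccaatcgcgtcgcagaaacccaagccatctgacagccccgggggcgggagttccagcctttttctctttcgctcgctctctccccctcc
This match was present in 1 of 9 Hedgehog genes with a promoter in the table and in 0.765% of all 33469 promoters over the same 250 bases. A match of letters is a description and not a measured site.

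Cholesterol synthesis genes were higher in 8 of 22 tested and lower in 0 (background 4.91% and 1.71%), with a median of 0.84 and 21 of 22 positive. Myelin is rich in cholesterol, and Schwann cells make much of it themselves. Hmgcs1, an early synthase of the pathway, stood at 308, 197 and 142 CPM in the myelin-rich libraries and at 79.6, 109 and 61.8 in the myelin-poor ones. Idi1, the isomerase of isoprenoid units, stood at 68.4, 42.6 and 34.6 against 13.9, 21.7 and 13.5 CPM. Srebf2, the transcription factor of the pathway, did not overlap but stayed under 2-fold, at 94.5, 83.5 and 82.5 against 50.2, 45.8 and 50.5 CPM. Msmo1, Fdft1, Sc5d and Tm7sf2 were also called. Without NC 2, the library with the most Mbp, 4 of 22 were called and the median was 0.75.

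Other lipid pathways differed in part. Sphingolipid and galactolipid genes were higher in 6 of 20 (median 0.43). They include Ugt8 and Fa2h, which belong to the myelin list, and Gal3st1, the sulfatide synthase, at 18.4, 7.90 and 13.1 against 2.13, 1.52 and 0.815 CPM. Sgms2, a sphingomyelin synthase, stood at 20.6, 17.7 and 17.2 against 5.97, 7.08 and 5.98 CPM. Fatty acid genes were higher in 3 of 19, with a median of -0.05 that turned to 0.05 when libraries were scaled by column totals. The 3 were Elovl7 and Elovl6, which lengthen fatty acids, and the desaturase gene Scd2, at 4336, 2154 and 2192 against 1534, 598 and 1012 CPM. Phospholipid synthesis genes were higher in 3 of 22 (median 0.14). Phospholipid genes just under the call included Far1, which makes the alcohols of ether lipids, at 173, 120.4 and 117 against 78.5, 76.4 and 69.1 CPM.

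The promoter of Hmgcs1 is shown with its matches to the letters CCAAT, read on both strands, in capitals (RefSeq, GRCr8 chr2:53382054-53382303, plus strand).
Hmgcs1: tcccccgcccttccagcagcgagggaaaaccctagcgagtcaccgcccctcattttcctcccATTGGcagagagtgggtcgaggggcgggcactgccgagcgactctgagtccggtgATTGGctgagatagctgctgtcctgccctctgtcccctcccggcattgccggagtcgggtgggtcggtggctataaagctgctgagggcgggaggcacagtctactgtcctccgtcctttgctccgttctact
CCAAT was found in 13 of 15 cholesterol genes with a promoter in the table (86.7%) and in 34.0% of all promoters. The sterol regulatory element core, searched as TCACNCCAC on both strands, was found in 0 of the 15 and in 0.974% of all promoters, which says only that these letters are not in this window.

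Mitosis genes were higher in the myelin-rich libraries in 14 of 27 tested and lower in 0 (background 4.91% and 1.71%), with a median of 1.08 and 26 of 27 positive. The median was 0.92 within NC and 0.99 within the implant libraries. Top2a, the topoisomerase that untangles chromosomes, stood at 19.5, 25.7 and 13.7 CPM in the myelin-rich libraries and at 5.97, 5.57 and 5.65 in the myelin-poor ones. Cdk1, the kinase that drives entry into mitosis, stood at 5.66, 5.15 and 3.83 against 1.25, 1.59 and 1.58 CPM. Cenpf, a protein of the kinetochore, stood at 8.32, 10.4 and 7.37 against 2.80, 2.60 and 2.17 CPM, and Prc1, which bundles the spindle midzone, at 12.0, 14.8 and 9.43 against 3.58, 4.05 and 3.48 CPM. These 4 genes were low and close together in the 3 myelin-poor libraries, and implant 1 was highest in Top2a, Cenpf and Prc1. Mki67 overlapped, at 26.7, 37.0 and 32.3 against 10.3, 42.8 and 17.2 CPM, with NC 3 above every other library. DNA replication genes differed less. They were called higher in 3 of 25 and lower in 0 (background 4.91% and 1.71%), with a median of 0.24 and 20 of 25 positive. At any fold, 12 lay wholly higher and 0 wholly lower (background 16.2% and 12.3%). One of these, the helicase subunit gene Mcm5, stood at 7.05, 10.1 and 6.84 against 3.69, 3.61 and 4.78 CPM. Another subunit gene, Mcm2, overlapped at 18.4, 22.0 and 20.3 against 18.3, 12.9 and 19.5 CPM. Without implant 1 the mitosis count was 9 of 27.

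Promoters of 3 of the called mitosis genes that hold both sets of letters searched are shown. Capitals mark CCAAT and the cell cycle homology region TTTGAA on either strand. The windows are RefSeq GRCr8 chr20:19265043-19265292, plus strand for Cdk1, GRCr8 chr1:143659231-143659480, plus strand for Prc1 and GRCr8 chr10:84473094-84473343, minus strand for Top2a.
Cdk1: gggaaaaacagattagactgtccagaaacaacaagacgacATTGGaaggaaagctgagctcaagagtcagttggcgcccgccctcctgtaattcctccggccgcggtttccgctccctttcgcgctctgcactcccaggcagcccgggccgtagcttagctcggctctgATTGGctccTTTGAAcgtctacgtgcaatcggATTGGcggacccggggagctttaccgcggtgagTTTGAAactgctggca
Prc1: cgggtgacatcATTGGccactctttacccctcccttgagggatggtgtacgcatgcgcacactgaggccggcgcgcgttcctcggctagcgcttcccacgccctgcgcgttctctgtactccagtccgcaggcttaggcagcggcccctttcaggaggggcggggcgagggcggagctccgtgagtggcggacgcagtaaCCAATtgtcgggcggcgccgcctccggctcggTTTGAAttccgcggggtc
Top2a: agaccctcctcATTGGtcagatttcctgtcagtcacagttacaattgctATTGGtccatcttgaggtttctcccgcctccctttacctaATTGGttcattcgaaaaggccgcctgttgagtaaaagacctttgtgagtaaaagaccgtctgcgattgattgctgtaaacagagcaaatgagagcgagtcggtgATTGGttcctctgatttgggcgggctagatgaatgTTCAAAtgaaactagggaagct
TTTGAA was found in 10 of 22 mitosis genes with a promoter in the table (45.5%) and in 16.2% of all promoters. Among the 13 called members with a promoter, 6 held it, so these letters were not particular to the called genes. Mki67, which was not called, held it, and Cenpf, which was called, did not. CCAAT was found in 17 of the 22 (77.3%), against 34.0% of all promoters. In these 3 genes the last TTTGAA or its reverse complement lay within 22 bases of the start.

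Perineurial genes were higher in 5 of 13 tested and lower in 0 (background 4.91% and 1.71%), with a median of 0.56. Cldn1, the claudin of the perineurial barrier, stood at 377, 317 and 394 CPM in the myelin-rich libraries and at 113, 90.3 and 105 in the myelin-poor ones. Tenm2 stood at 115, 92.7 and 134 against 53.3, 21.2 and 43.9 CPM and the potassium channel gene Kcnj13 at 12.2, 10.1 and 16.4 against 3.58, 4.34 and 4.73 CPM. Slc2a1, the glucose transporter of perineurium and nerve vessels, was short of 2-fold at 220.2, 192 and 184 against 112, 90.4 and 145 CPM. Itgb4, shared with Schwann cells as a laminin receptor subunit, stood at 2602, 1412 and 3246 against 970.2, 919 and 826 CPM. Basement membrane and integrin genes were higher in 5 of 26 and lower in 0, with a median of 0.34. They were Itgb4 and its partner Itga6, the laminin chains Lama2 and Lamb1, and Dag1. The count was 8 without NC 1 and 8 without implant 1. Lamb1 stood at 739.9, 579.5 and 494 against 267, 251 and 267 CPM, and the laminin receptor gene Dag1 at 1193, 826 and 782 against 467, 325 and 406 CPM.

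**Figure D4:**
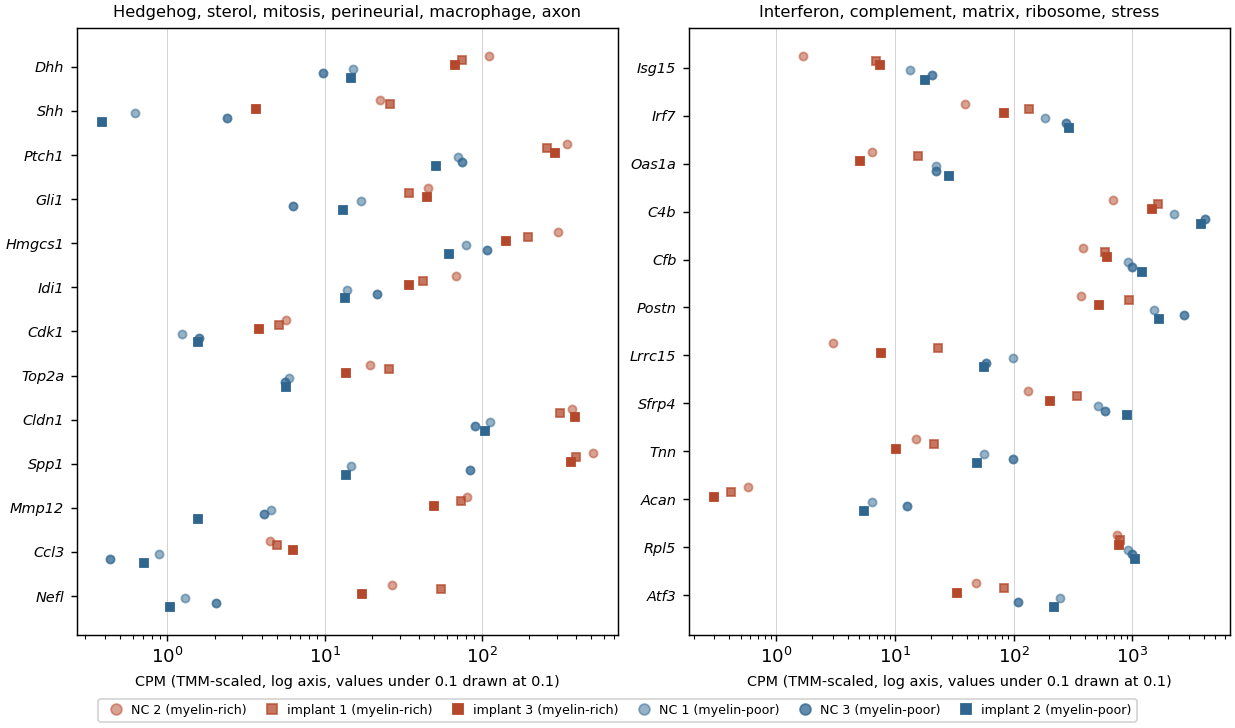
CPM on a log axis of single genes from the programmes described, 1 point per library (circles NC, squares implant; red myelin-rich, blue myelin-poor). On the left the red points lie to the right of the blue ones in every row, and on the right they lie to the left; NC 2 is lowest for Isg15, at 1.68 CPM.

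Several genes of phagocytes were higher in the myelin-rich libraries and others lower. The list of monocytes and macrophages had 0 of 24 members called in either direction, with 17 negative and a median of -0.14. At any fold, 3 of its members lay wholly higher and 2 wholly lower (background 16.2% and 12.3%). The leukocyte gene Ptprc overlapped at 78.1, 102 and 104 against 76.5, 99.0 and 115 CPM. Within the list of lipid uptake and foam cell genes, 2 of 19 were higher and 1 lower (background 4.91% and 1.71%). At any fold, 4 lay wholly higher and 4 wholly lower (background 16.2% and 12.3%). Spp1, which encodes osteopontin, stood at 511, 401 and 373 CPM in the myelin-rich libraries and at 14.8, 83.7 and 13.7 in the myelin-poor ones. Gpnmb, a glycoprotein of lipid-laden phagocytes, stood at 626, 499 and 775 against 202, 319.9 and 102 CPM. Trem2, a lipid-sensing receptor of phagocytes, was short of 2-fold at 25.7, 22.3 and 21.9 against 16.6, 10.8 and 13.2 CPM. Nr1h3 of the foam cell list lay wholly lower, also short of 2-fold, at 29.0, 37.7 and 31.1 against 52.6, 70.9 and 54.5 CPM. Fabp4, lower in the myelin-rich class, is also an adipocyte gene. Among cytokines, Ccl3 stood at 4.51, 4.98 and 6.31 against 0.883, 0.434 and 0.706 CPM and Ccl11 at 21.4, 45.1 and 49.6 against 83.8, 67.1 and 193 CPM. Matrix proteases and inhibitors had 18 of 29 negative and a median of -0.21. At any fold, 5 lay wholly higher and 5 wholly lower, near the background of 16.2% and 12.3%. By the call rule, 4 were higher and 1 lower (background 4.91% and 1.71%), and 3 were lower without implant 1 (background 3.39%). The higher ones were Mmp12, Mmp15, Mmp9 and Mmp3, and the lower one Adamts4. Mmp9 and Mmp3 stood at 13.6, 30.7 and 80.4 against 1.25, 5.93 and 2.93 CPM for Mmp9 and 24.6, 18.6 and 11.3 against 1.51, 1.45 and 2.28 CPM for Mmp3. Schwann cells and cartilage can also make Spp1, and its source among the cells was not tested.

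Transcripts of 2 genes of neurofilaments, the scaffold proteins of axons, were present in the nerve and higher in the myelin-rich libraries. Nefl stood at 26.8, 55.3 and 17.2 CPM in the myelin-rich libraries and at 1.3, 2.02 and 1.03 in the myelin-poor ones and Nefm at 20.7, 27.1 and 14.2 against 2.08, 0.94 and 1.14 CPM. These 2 genes and Scn9a were the called members among 13 neuronal and axonal genes (background 4.91% higher). Of the 13, 8 were positive and 5 negative, with a median of 0.25. Scn9a was low in several libraries, at 11.4, 1.29 and 8.31 against 0.467, 1.01 and 0.326 CPM. Without implant 1, 3 of the 13 were higher and 2 lower (background 5.62% and 3.39%). Whether the number of axons differed was not tested. Among trophic factors and receptors 3 of 30 were higher and 1 lower (background 4.91% and 1.71%), with a median of -0.20. Cntf, the ciliary neurotrophic factor of myelinating Schwann cells, stood at 268, 88.9 and 82.8 against 11.1, 33.5 and 8.42 CPM. The receptor genes Ntrk3 and Gfra2 stood at 14.7, 13.0 and 10.2 against 5.04, 4.70 and 4.18 CPM and 75.4, 76.0 and 68.3 against 41.8, 15.3 and 37.5 CPM. Igf2, an insulin-like growth factor, was the lower one at 22.7, 47.8 and 49.5 against 75.1, 65.8 and 145 CPM. Without NC 3, 5 of 30 were lower (background 2.54%), and without implant 3, 3 were (background 2.36%). The ErbB list held opposed ligands. Hbegf and Tgfa were higher, at 74.1, 47.8 and 37.4 against 9.09, 26.7 and 8.15 CPM and 76.8, 36.6 and 24.1 against 12.4, 14.4 and 13.6 CPM, whereas Nrg1, the neuregulin that repair Schwann cells also make, was lower at 1.04, 3.04 and 0.413 against 3.48, 3.54 and 4.02 CPM.

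Interferon-response genes were lower in the myelin-rich libraries in 8 of 27 tested and higher in 0 (background 1.71% and 4.91%), with a median of -0.84 and 26 of 27 negative. Isg15, a ubiquitin-like protein induced by interferon, stood at 1.68, 6.91 and 7.43 CPM in the myelin-rich libraries and at 13.4, 20.6 and 18.0 in the myelin-poor ones. Irf7, a transcription factor that amplifies the response, stood at 38.5, 135 and 83.4 against 184, 276 and 290.3 CPM. The RNA sensor gene Oas1a stood at 6.36, 15.5 and 5.01 against 22.1, 22.0 and 28.3 CPM. NC 2 held the lowest value of Isg15 and Irf7 by a wide margin, and implant 1 came closest to the myelin-poor class for Irf7 and Oas1a. Without NC 2 the count was 4 of 27 (background 1.39%) and the median -0.57. Without implant 1 they were 13 of 27 (background 3.39%) and -1.06. With plain column totals the count was 3 of 27 and the median -0.73.

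Complement genes were lower in 4 of 20 and higher in 0, with a median of -0.60. The count was 7 without NC 1, without NC 3 or without implant 1, against backgrounds of 2.71%, 2.54% and 3.39%. C4a and C4b, near-identical copies whose reads the counter may have shared between them, stood at 647, 1956 and 1110 against 3236, 3074 and 4236 CPM and 690.3, 1644 and 1472 against 2259, 4098 and 3800 CPM. Cfb, of the alternative pathway, just missed a 2-fold difference at 380.1, 591 and 613 against 919.9, 1002 and 1196 CPM. Cfd, its activating protease, is an adipocyte product as well and stood at 414, 594 and 705 against 1180, 2830 and 1770 CPM. B and plasma cell genes were lower in 5 of 13 (median -0.86), all at a few CPM or less, for example Cd79b at 0.462, 1.70 and 0.649 against 2.54, 3.83 and 2.83 CPM. That count was 1 without NC 2, 2 without NC 3 and 1 with plain column totals. T and NK cell genes had 0 of 19 called and a median of -0.55. Without implant 1, 5 were lower (background 3.39%), and without NC 1, 3 were (background 2.71%). The neutrophil list had 1 of 16 higher (Mmp9) and a median of -0.36. That median was 0.28 without NC 2, with 2 higher, 0.02 without NC 3, and -0.78 without NC 1, with 2 lower. MHC class II genes had 0 of 16 called and a median of 0.09.

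Fibrous matrix genes leaned lower in the myelin-rich class, with 24 of 28 negative, a median of -0.42 and 1 called. Without implant 1, NC 3 or implant 2 the number called lower was 5, 4 and 3, against backgrounds of 3.39%, 2.54% and 2.25%. The called gene was Postn, which encodes periostin, at 371, 946 and 522 CPM in the myelin-rich libraries and at 1522, 2709 and 1686 in the myelin-poor ones. Col1a1, a chain of type I collagen, did not overlap but differed by less than 2-fold, at 2477, 2961 and 2302 against 3838, 3456 and 3798 CPM. The collagen cross-linking enzyme gene Lox stood at 20.2, 21.0 and 12.5 against 39.9, 31.9 and 30.2 CPM. Of endoneurial and epineurial fibroblast genes, 2 of 27 were lower and 1 higher (median -0.24). Sfrp4, a secreted Wnt inhibitor, stood at 132, 339 and 201 against 509, 589 and 901 CPM. The BMP antagonist gene Grem1 stood at 2.2, 9.48 and 5.07 against 22.4, 12.9 and 25.5 CPM. It was the only called gene of 33 in the TGF-beta and BMP list, whose median was -0.07. At any fold, 8 of that list lay wholly higher and 2 wholly lower (background 16.2% and 12.3%). Wnt genes pointed both ways, with 5 of 34 called higher and 2 lower (background 4.91% and 1.71%). Without NC 1, 3 were higher (background 5.61%). At any fold, 5 lay wholly higher and 8 wholly lower (background 16.2% and 12.3%). Among the 5, Sfrp5 stood at 386, 171 and 267 against 66.1, 75.6 and 55.6 CPM and the ligand gene Wnt6 at 31.0, 24.9 and 35.3 against 11.5, 7.81 and 7.44 CPM. Cartilage and bone genes also pointed both ways. Col2a1, the collagen of cartilage, was higher at 13.2, 6.56 and 4.72 against 0.519, 1.01 and 0.543 CPM, while Acan and Phex were lower.

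Ribosomal protein genes had a small but even difference. None of 24 reached 2-fold, but 22 lay wholly lower in the myelin-rich class and 1 wholly higher, against backgrounds of 12.3% and 16.2% at any fold, with a median of -0.42. Rpl5 stood at 737, 783 and 769 CPM in the myelin-rich libraries and at 925, 1002 and 1045 in the myelin-poor ones. The exception was Rpl13, whose symbol has 2 entries in the table that pointed opposite ways. The entry with more counts (ENSRNOG00000062895) stood at 224, 175 and 191 against 132, 125 and 121 CPM and the other (ENSRNOG00000015335) at 109, 141 and 142 against 156, 188 and 188 CPM. Ribosomal protein genes have many processed copies, so single entries are uncertain. The even separation depended on scaling. With plain column totals 5 of 24 lay wholly lower, and the median was -0.31. In the endoplasmic reticulum stress list 2 of 23 were lower, Atf3 and Trib3. Atf3, a stress and nerve injury factor, stood at 48.3, 82.4 and 33.0 against 244, 109 and 219 CPM.

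Adipocyte genes were lower in the myelin-rich libraries in 14 of 19 tested (background 1.71%), with a median of -1.27 and all 19 negative. Plin1 encodes perilipin of the fat droplet surface and stood at 129, 110.0 and 158 CPM in the myelin-rich libraries and at 298, 646 and 191 in the myelin-poor ones, and the hormone gene Lep at 35.5, 44.8 and 46.6 against 105, 269 and 67.7 CPM. Without NC 3 the count was 4 of 19 and the median -0.85. Haemoglobin and red cell genes had 0 of 16 called, with a median of -0.51 that was 0.51 without NC 3 and 0.05 within the implant libraries. Skeletal muscle genes had 1 of 22 called, and a median of 0.64 that was -1.05 without implant 3. Acta1, the skeletal muscle actin, stood at 106, 20.8 and 2095 against 5.87, 351 and 468 CPM. Endothelial genes had 0 of 23 called and a median of -0.49, with Pecam1 at 207, 408 and 390.0 against 391, 688 and 512 CPM. The level of the adipocyte list ran from -0.99 to -0.20 log2 units in the myelin-rich libraries and from 0.02 to 1.59 in the myelin-poor ones. Without NC 3, 6 of 12 Hedgehog, 9 of 22 cholesterol and 12 of 27 mitosis genes were higher, against a background of 4.8%. Interferon genes were then lower in 11 of 27, against 2.54%. Without implant 3 these counts were 6, 10 and 18 higher and 6 lower (background 5.43% and 2.36%). The adipocyte list still differed in both settings, with medians of -0.85 and -1.46. The part of these tissues in the other differences was not tested.

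**Figure D5:**
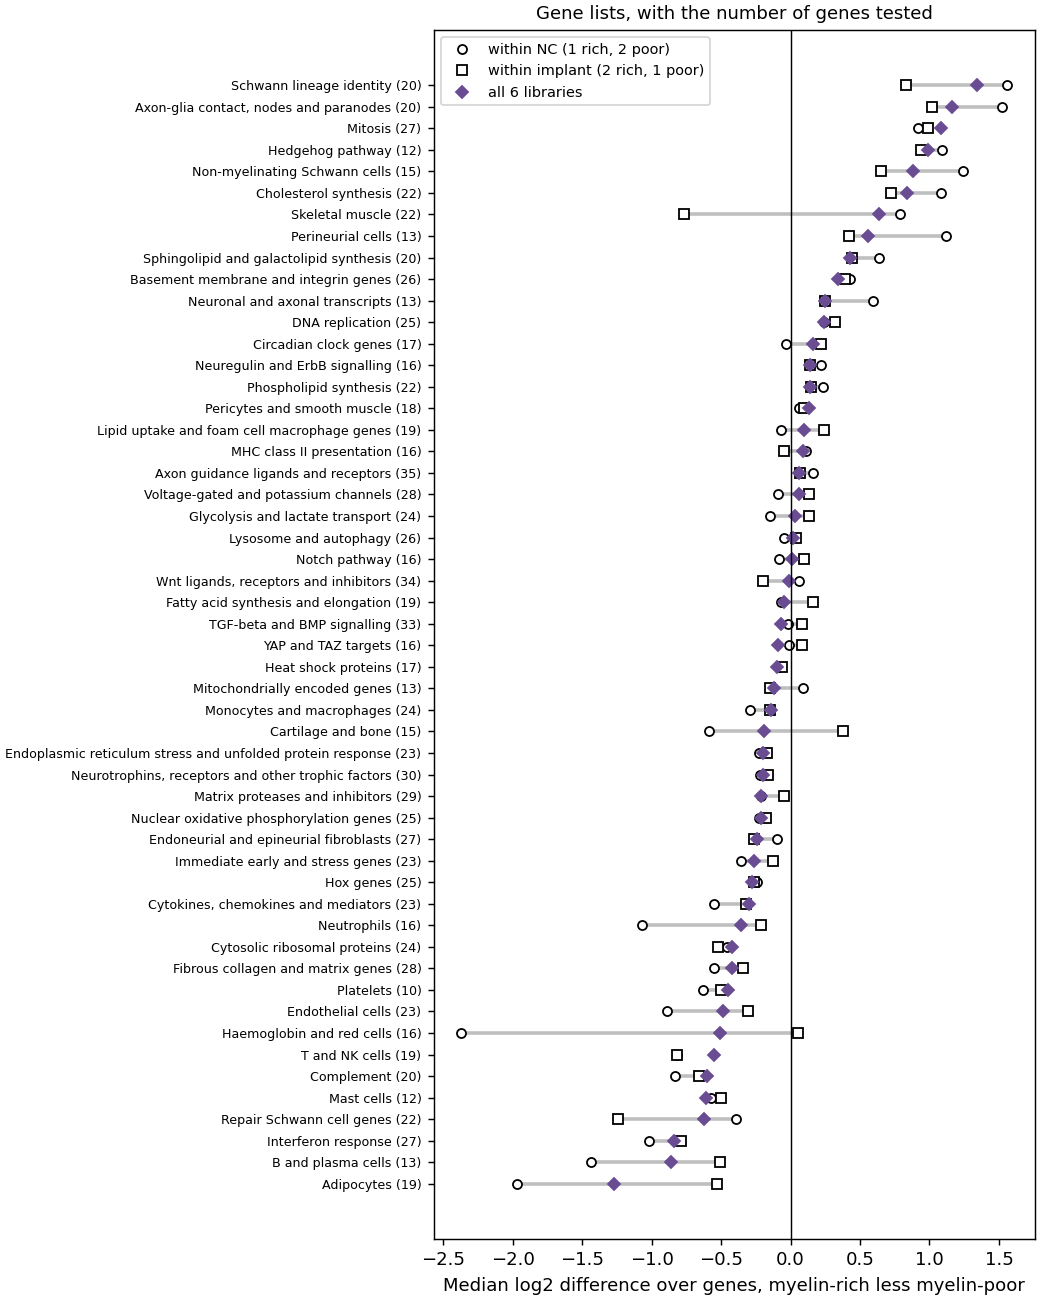
Median log2 difference over the genes of each list with at least 10 genes tested, myelin-rich less myelin-poor; diamonds use all 6 libraries, open circles the NC libraries alone and open squares the implant libraries alone. Mitosis, Hedgehog, cholesterol and interferon lists keep close values in both treatments, whereas skeletal muscle (0.79 within NC, -0.77 within implant) does not.

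Several lists had few or no members called. Notch genes (0 of 16 called, median 0.01), lysosome and autophagy genes (0 of 26, 0.02), pericyte and smooth muscle genes (0 of 18, 0.13) and circadian clock genes (0 of 17, 0.16) had no member called. Nuclear oxidative phosphorylation genes (0 of 25, -0.21), mitochondrially encoded genes (0 of 13, -0.12) and Hox genes (0 of 25, -0.28) had none either. Glycolysis genes had 2 of 24 higher and a median of 0.03. Heat shock genes had 2 of 17 higher and a median of -0.10. The 2 were Hspa4l and Cryab, a small chaperone of myelinating Schwann cells, at 245, 90.0 and 139 against 25.3, 37.2 and 36.0 CPM.

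The treatment was tested with Mbp level in the model, since Mbp varied widely within both groups and NC and implant come from the titles. In edgeR's quasi-likelihood fit with log2 Mbp as a covariate, no gene of 13999 passed after Benjamini-Hochberg correction, with 0 (0%) on the side of the conduit and 0 (0%) on the side of NC. Before correction, 486 genes had a p under 0.05, of which 309 were higher with the conduit, and 241 had one when Mbp was left out of the fit. Both counts were below a share of 0.05 of the 13999 genes, which that threshold passes with no effect present. Leaving out each library gave 218 (without implant 2) to 1362 (without NC 3) such genes and 0 after correction. Only the count without NC 3 lay above that share. The smallest adjusted p was that of C3, the central complement component, at 0.0867, with a log2 fold change of 1.86 ± 0.11 (SE). C3 was singled out after its values were seen. It stood at 12.8, 81.7 and 76.5 against 85.2, 63.0 and 294 CPM, so NC (85.2, 12.8 and 63.0) and implant (81.7, 294 and 76.5) overlapped, and NC 2 and implant 2 were the extremes. With the same covariate DESeq2 called 45 genes (31 up and 14 down), whereas limma-voom had 0 calls. Mbp was measured in the same libraries after treatment, so this comparison is at equal Mbp level and is not one of equal nerves.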

How the data were processed

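Oligo(dT)-enriched RNA of 6 libraries was sequenced, per the labels' protocols. The values are expected counts per gene (23091 genes), deposited by the authors as estimated counts that are not all whole. Tools listed in the submitters' processing notes are DESeq2, HISAT2, StringTie (1.3.1) and Bowtie2 (2.2.8), without their roles. Which program counted, and on which build and annotation, is not given in the sources used here. Strand is not marked by the kit, so antisense and overlapping genes cannot be separated.

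Counts were rounded, filtered with filterByExpr (13999 genes left) and scaled by TMM in edgeR 4.0.16 (R 4.3.3). Entries without a symbol (720) were kept under their IDs. No pair of libraries agreed within sampling noise. The myelin contrast was described from log2(CPM + 0.5) with no test. The conduit was tested with edgeR with log2 Mbp as a covariate, 3 residual degrees of freedom and a threshold of 0.05. No label names separate animals, so the p-values reflect the spread among samples, which may be technical. The fit was tested on simulated data for this comparison over 13999 genes. Of 50 genes at each size it found 6 at 2-fold, 38 at 4-fold, 47 at 8-fold and 49 at 16-fold. Of its 154 calls 14 were false, a larger share than the threshold of 0.05. The changed genes were drawn only from those above a minimum mean count, so these rates do not cover genes with low counts. The simulated spread was the one that the fit itself had estimated. Alternatives used DESeq2 1.42.0, limma 3.58.1, other scalings, filters and folds, and each library left out.

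Classes, 55 gene lists (1195 symbols, 1145 in the table, 1061 tested) and the naming rule were chosen with earlier results of these data known. The rule took the 12 genes per direction with the widest gap (mean of at least 4 CPM, no overlap, outside the myelin list), up to 4 genes per list by gap or, without any, the 2 with the highest mean, and fixed markers. Named outside it, after their values were seen, were Adamts4, Mmp15, Bdnf, C3, Cadm4, Cdh19, Elovl6, Fdft1, Gap43, Gli2, Gli3, Hhip, Idi1, Lama2, Runx2, Smo, Sox2, Tm7sf2 and Trem2. For symbols with more than 1 entry, that of the higher mean is quoted. Promoter windows came from RefSeq (GRCr8), first entry per symbol; the GLI letters were an addition made once values were known. Some genes that the rule names are not reported here. Plots used matplotlib 3.10.9.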

Additional observations from a re-analysis of the deposited data

Results flagged for a closer look

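The circadian clock list had opposite differences in the 2 treatments. Its level in NC 2 (-0.08 log2 units from the mean of the 6 libraries) lay below NC 1 (0.02) and NC 3 (-0.02), with a median difference of -0.03 within NC. Within the implant libraries the median difference was 0.22, with implant 3 at 0.13 and implant 1 and implant 2 both at -0.02. The difference between the treatments was not tested. A strict count over all genes took every pair of a myelin-rich and a myelin-poor library within a treatment. In 1095 of 13999 genes (7.82%), all NC pairs differed in one direction and all implant pairs in the other. Groups of 3 libraries were too small for a test of single outlying libraries.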

How the results depend on the processing

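No p-value belongs to the myelin contrast, so the alternatives show only how its counts move. Against 687 genes higher and 240 lower, a 1.5-fold threshold gave 1161 and 598 and a 4-fold one 202 and 21. Leaving out 1 library gave 620 to 787 higher and 194 to 474 lower, the lower count being 379 without NC 1 and 474 without implant 1. Other scalings and filters kept both counts within 1.5 times, and 81.3% of the calls were higher with column totals against 74.1%. Without the listed haemoglobin, muscle and adipocyte genes, an alternative chosen after seeing the data, they were 686 and 226. Of the list medians of at least 0.5 log2 units, those of red cells and skeletal muscle changed sign. Red cells (-0.51) gave 0.05 within implant, 0.54 without NC 2 and 0.51 without NC 3, and leaving out 1 library gave -1.97 to 0.54. Muscle (0.64) gave -0.77 within implant, -0.98 without NC 1 and -1.05 without implant 3, and leaving out 1 library gave -1.05 to 1.96.

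For the conduit at equal Mbp level, edgeR called 0 genes under every scaling, filter, covariate and left-out library run, while DESeq2 called 45 with the covariate and 11 without it. The cause of the difference between tools was not tested. The replicate block gave 0 calls with the covariate and 0 without it. For libraries with equal replicate numbers, the correlations of their deviations from the group means were 0.075, -0.742 and 0.047. These values cannot decide whether equal numbers pair the libraries, since each such pair joins a myelin-rich with a myelin-poor library. Pairs of an NC and an implant library of the same class gave 0.328 to 0.549.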

Other observations

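Single genes separated the classes in lists whose medians were near 0. Tead1, a DNA-binding partner of YAP and TAZ, stood at 42.7, 35.8 and 34.1 CPM in the myelin-rich libraries NC 2, implant 1 and implant 3 and at 19.2, 16.9 and 10.2 in the myelin-poor libraries NC 1, NC 3 and implant 2. The YAP and TAZ list had 2 of 16 members higher and a median of -0.09. Aldoc, an aldolase of glycolysis, stood at 32.4, 17.3 and 27.5 against 7.27, 7.95 and 6.74 CPM in the same order. Sema5a, a semaphorin of axon guidance, stood at 559, 218 and 253 against 59.6, 82.6 and 45.2 CPM, in a list with 5 of 35 higher, 1 lower and a median of 0.06. The muscle regeneration list, with only 4 of its 14 genes tested, differed from these, with 2 higher (background 4.91%) and a median of 0.97. So few genes do not describe a muscle programme. One of the 2, Ncam1, also belongs to the list of axon-glia contact. The other, the engulfment receptor gene Megf10, stood at 53.1, 25.1 and 25.4 against 3.22, 8.10 and 4.13 CPM.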
